A study of Drosophila melanogaster with 6 samples.

Results

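The genes described here are those of the Drosophila DNA damage checkpoint: the damage kinases tefu (ATM) and mei-41 (ATR), the ATR partner mus304 (ATRIP), the checkpoint clamp gene Rad9 and its loader gene Rad17, the effector kinases grp (Chk1) and lok (Chk2), the transcription factor p53 and its regulator Corp. They were chosen by name, as the rows of the deposited count table whose symbol is one of 10 listed, and 9 of the 14233 genes in the table matched. The remaining one, Hus1-like, which encodes another clamp subunit, is not analysed here. RNA was read from dorsal cells of wing imaginal discs, the larval epithelium that gives rise to the wing and dorsal thorax, in 3 libraries of Ap>Gal4, myrT, RasV12; TubGal80ts and 3 of Ap>Gal4, myrT, GFP-i; TubGal80ts. RasV12 is Ras, a small GTPase of growth signalling, with a mutation that keeps it switched on, and GFP-i is the name the labels give to the control construct, so its libraries are the controls. Both genotypes carried the ap driver, which limits the transgenes to the dorsal compartment, the membrane-bound Tomato marker used for sorting, and a temperature-sensitive Gal80. Larvae were raised for 6 days at 18 °C, with the transgenes held off, and then for 3 days at 29 °C, and discs were taken from late larvae. Each library was made from 150000 sorted cells by 3' mRNA sequencing, which places reads near the 3' end of a transcript. The title of the series names a block of DNA synthesis and of the DNA damage response by RasV12, and the comparison of the genotypes asks how transcript levels of the checkpoint genes differ between them.

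When DNA is broken or a replication fork stalls, ATM binds at broken ends and ATR, brought by its partner ATRIP, at single-stranded DNA coated with RPA. In yeast and mammals the Rad17 loader places the Rad9 clamp at such sites, and the clamp helps to switch ATR on. The kinases then phosphorylate Chk1 and Chk2, which hold the cell cycle by restraining Cdc25 phosphatases, and in flies Chk2 activates p53, which induces cell death and repair genes. These steps are controlled largely by phosphorylation, which RNA levels do not read.

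The libraries held 11070295 to 15581752 counts, so that 3 counts, used as the floor of detection, corresponded to 0.193 to 0.271 CPM (counts of a gene per 1000000 counts of the library), for counting error only. Levels below are CPM scaled by the trimmed mean of M-values (TMM), and they are used to compare libraries, not genes. Nothing in the labels ties replicates to separate collections of larvae, so the p-values rest on the spread between these libraries, which may be technical. On the second principal component, with 21.8% of the variance, RasV12 replicate 3 and GFP-i replicate 2 lay at 26.7 and 23.3, and RasV12 replicate 2 and GFP-i replicate 1 at -27.6 and -29.8, so libraries of both genotypes were spread along it. Ras85D, the gene from which RasV12 derives, stood at 54.2 to 79.9 CPM in RasV12 against 38.9 to 41.2 CPM in the controls, but reads at a 3' end may miss the transgene. The driver gene ap was at 207 to 267 CPM in RasV12 against 227 to 308 CPM in the controls, and of 5 markers of the dorsal wing disc nub and vg fell and mirr rose. Some markers of other cells moved with the genotype, in either direction. The summed level of 7 haemocyte markers was 10.5 to 14.1 CPM in RasV12 against 16.8 to 29.6 CPM in the controls, with the defining markers eater, He and Hml too low to test (He was at 0 in every RasV12 library), and 2 of the 4 tested fell. For 6 muscle precursor markers the sum was 59.98 to 76.4 CPM in RasV12 against 76.8 to 117 CPM in the controls, and 3 fell (Him, htl and zfh1). Without passing, twi was lower in every RasV12 library (log2 difference -1.21, edgeR adjusted p = 0.051) and Mef2 was higher in every one (log2 difference 0.33, edgeR adjusted p = 0.152). Of 2 tracheal markers btl rose (edgeR adjusted p = 0.0054) and trh was lower in every RasV12 library without passing (edgeR adjusted p = 0.061). Their sums were 61.5 to 77.5 CPM in RasV12 against 64.8 to 99.0 CPM in the controls. Of 4 markers of neurons and glia brp fell (edgeR adjusted p = 0.021). Without passing, elav was higher in every RasV12 library (edgeR adjusted p = 0.061) and nSyb lower in every one (edgeR adjusted p = 0.338). The sums were 56.4 to 69.1 CPM in RasV12 against 59.1 to 79.0 CPM in the controls. The part of these cells in the results below was not tested. In sorted bulk samples, fewer cells of a type and less RNA per cell cannot be told apart.

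Of the 9 checkpoint genes, Corp rose and grp fell in RasV12 cells, and 7 did not pass the test. The test was edgeR's quasi-likelihood F test across all 9134 genes with enough counts, with Benjamini-Hochberg adjusted p-values and a threshold of 0.05. It called 14.8% of all genes tested, 9.15% as higher in RasV12 and 5.68% as lower, so 2 calls among 9 genes is a share near that background. The split over all genes was 836 higher and 519 lower, or 615 higher and 911 lower with scaling by library size only. Corp and grp were also the only members whose groups did not overlap, against 33.6% of all genes tested. The median log2 fold change of the 9 genes was 0.12, and that of all genes tested was 0.02. In absolute size the medians were 0.25 and 0.32. All 9 passed the filter on low counts, but Corp reached 10 counts in the RasV12 libraries only and therefore could be tested only because it was high there.

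**Figure D1:**
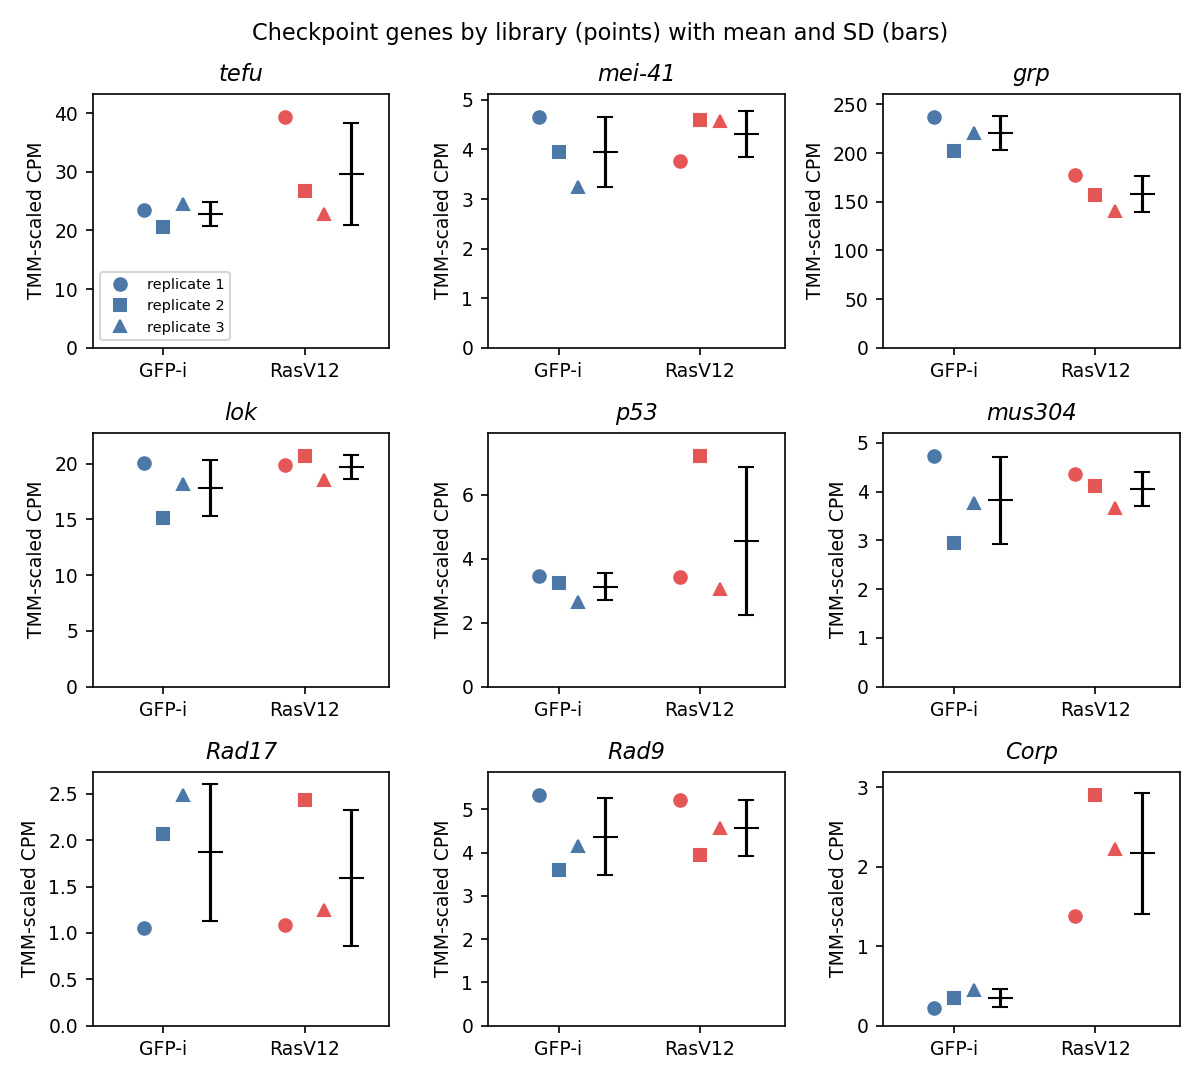
TMM-scaled CPM (y axis, linear, from 0) of the 9 checkpoint genes in each library, by genotype (x axis). Points are libraries, with a symbol for each replicate number, and bars give the mean and SD over 3 libraries. The groups are apart for grp and Corp and overlap for the other genes.

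**Figure D2:**
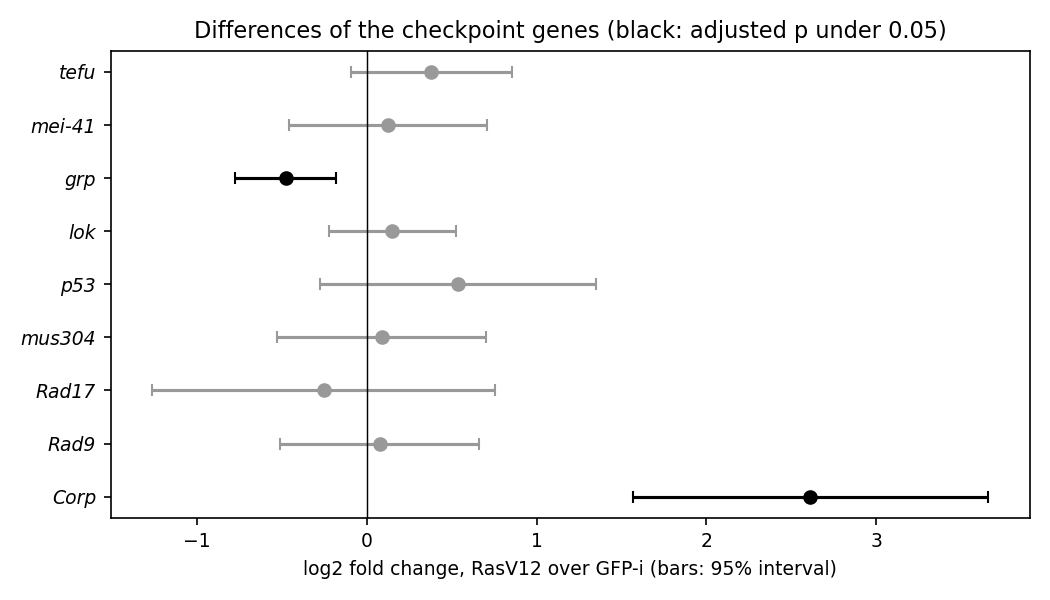
Log2 fold change of RasV12 over GFP-i (x axis) with its 95% interval for the 9 checkpoint genes (y axis). Black points passed the test (Corp at 2.61 and grp at -0.48), and the intervals of the grey points include 0.

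The effector kinase gene grp encodes Chk1, the kinase that acts below ATR in flies. It lies on 2L, 16680054 to 16699926 on the plus strand (FBgn0261278, dm6), and its 5 annotated transcripts share 1 3' end, so 3' reads cannot tell them apart. Its level was 177, 157 and 140 CPM in RasV12 replicates 1, 2 and 3, and 237, 202 and 221 CPM in GFP-i replicates 1, 2 and 3. Every RasV12 library was below every GFP-i library. The log2 fold change was -0.48 ± 0.13 (SE, n = 3 per group; edgeR adjusted p = 0.038), a level 0.718 times that of the control with a 95% interval of 0.584 to 0.884. This was the most deeply counted of the checkpoint genes, with 6140 counts in RasV12 and 9513 in GFP-i. The call was lost when some single libraries were left out. The edgeR adjusted p was 0.116 with RasV12 replicate 3 left out, and 0.080 and 0.089 with replicate 1 or 3 of the controls left out. The log2 fold changes in these fits were -0.40, -0.48 and -0.54. With both libraries at the upper end of the second principal component removed, RasV12 replicate 3 and GFP-i replicate 2, the adjusted p was 0.097. The fold change stayed negative in all 13 alternatives, between -0.64 and -0.40.

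The other effector kinase gene, lok, encodes Chk2, which activates p53 after breaks in flies. It lies on 2L, 20061422 to 20064381 on the plus strand (FBgn0019686). Its level was 19.9, 20.7 and 18.6 CPM in RasV12 against 20.1, 15.1 and 18.1 CPM in the controls. The ranges overlap, and the log2 fold change of 0.15 ± 0.17 did not pass (edgeR adjusted p = 0.609), with a 95% interval of 0.855 to 1.44 on the fold scale. The last 121 bases of lok are also exon of vls on the other strand, a gene with 1599 counts in all against 1527 for lok. Since the sources do not say whether counting used strand, reads of the shared stretch may not be told apart.

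Set against each other within a library, the kinase genes grp and lok gave a ratio that does not depend on library scaling. The ratio of grp to lok counts was 8.91, 7.597 and 7.54 in RasV12 and 11.8, 13.4 and 12.2 in GFP-i. All RasV12 libraries were below all GFP-i libraries, by 0.64 on average on the log2 scale, from 3.63 ± 0.09 in GFP-i to 2.996 ± 0.14 in RasV12 (SD, n = 3; exact two-sided permutation p = 0.1). With 3 libraries against 3 no p under 0.1 is possible. Any reads of vls counted for lok would enter this ratio too.

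**Figure D3:**
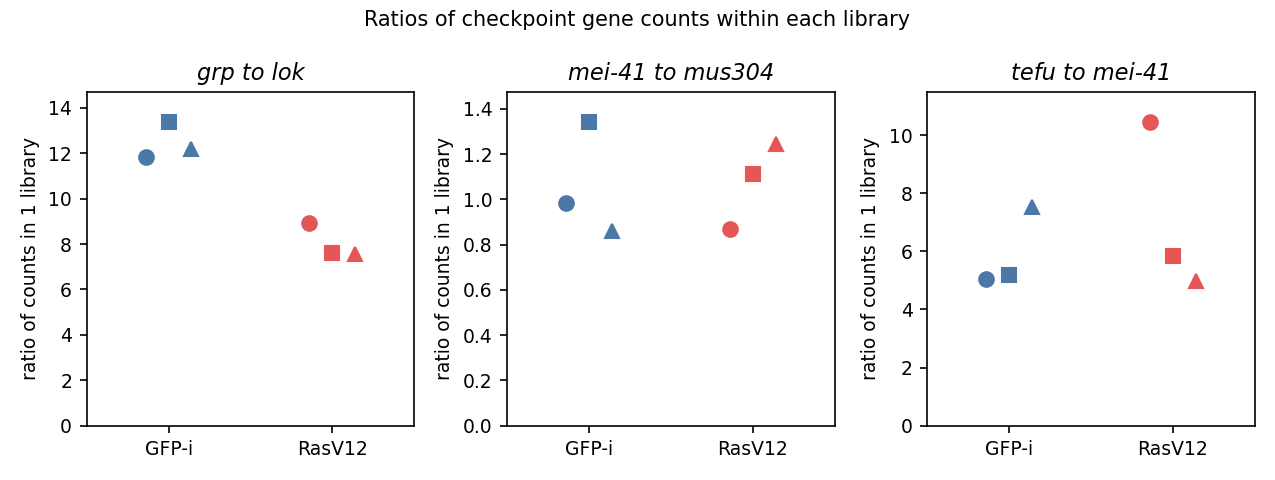
Ratio of counts of a pair of checkpoint genes in the same library (y axis, linear, from 0), by genotype (x axis), with each point a library and its symbol the replicate number. The grp to lok ratio is 7.54 to 8.91 in RasV12 and 11.8 to 13.4 in GFP-i, while the other ratios overlap between genotypes.

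The transcription factor gene p53 did not pass the test, and its RasV12 libraries disagreed. The gene lies on 3R, 23049657 to 23054082 on the minus strand (FBgn0039044), and its 4 annotated transcripts share 1 3' end, so isoforms were not separated. The level was 3.41, 7.22 and 3.05 CPM in RasV12 against 3.46, 3.24 and 2.64 CPM in the controls. RasV12 replicate 2 stood above the other libraries, which lay close together in both genotypes. The log2 fold change was 0.53 ± 0.36 (SE, n = 3 per group; edgeR adjusted p = 0.382), with a 95% interval of 0.825 to 2.54 on the fold scale, and without RasV12 replicate 2 it was 0.05. An antisense gene, asRNA:CR46089, shares 812 exonic bases with p53, the nearest of them 3265 bases from the 3' end of p53. Its counts were 40, 18 and 61 in RasV12 and 10, 69 and 11 in GFP-i. Whether reads of the antisense gene enter the counts of p53 was not tested. RasV12 replicate 2, the highest for p53, was the library of lowest depth (11070295 counts) and highest mitochondrial share (5.31%).

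Corp, which in flies is a target of p53 and restrains it, was the one checkpoint gene that rose. It lies on X, 8269898 to 8271409 on the minus strand (FBgn0030028). Raw counts were 19, 31 and 32 in the RasV12 libraries and 3, 6 and 6 in the GFP-i libraries, or 1.38, 2.91 and 2.22 CPM against 0.226, 0.354 and 0.453 CPM. The lowest RasV12 library was above the highest GFP-i library, and 1 GFP-i library was at the floor of 3 counts. Counting error alone gives 95% Poisson intervals of 11.4 to 29.7 counts for the lowest RasV12 library and of 2.20 to 13.1 counts for the highest GFP-i libraries, which overlap. These are raw counts of libraries of different depth, and an overlap of intervals is no test of a difference. Corp had 82 counts in RasV12 and 15 in GFP-i in all. Over all libraries the log2 fold change was 2.61 ± 0.47 (SE, n = 3 per group; edgeR adjusted p = 0.0046), a 6.11-fold difference with a 95% interval of 2.96 to 12.6. Of all tested genes with a mean of 0.5 to 2 CPM, 6.64% were called higher. Leaving out any single library kept the call (adjusted p = 0.0096 to 0.031), and with the same pair of libraries removed it was lost at nearly the same fold change (2.57 on the log2 scale, adjusted p = 0.066). All these fits apply the filter on low counts, which Corp passed through its RasV12 libraries only, so they add no independent support.

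The whole of Corp lies inside CG1632 on the other strand (X, 8252670 to 8272462), and the annotation puts it in an intron: no base of a Corp exon is exon of CG1632. CG1632 had 9701 counts in all against 97 for Corp. It stood at 105, 96.9 and 119 CPM in RasV12 against 111, 139 and 126 CPM in the controls, and the difference of -0.23 ± 0.14 on the log2 scale did not pass (edgeR adjusted p = 0.325). The ratio of Corp to CG1632 counts was 0.0132, 0.0300 and 0.0186 in RasV12 and 0.0020, 0.0025 and 0.0036 in GFP-i. Within libraries the log2 ratio was thus 2.75 higher in RasV12 (-5.66 ± 0.59 against -8.41 ± 0.36, SD, n = 3; exact two-sided permutation p = 0.1, the smallest this design allows). The exons of Corp begin 17228 bases from the start of CG1632, and the CG1632 exon before them ends at 17186 bases. Counts of CG1632 do not show how many reads came from its intron. Whether some reads given to Corp come from unspliced CG1632 was not tested.

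**Figure D4:**
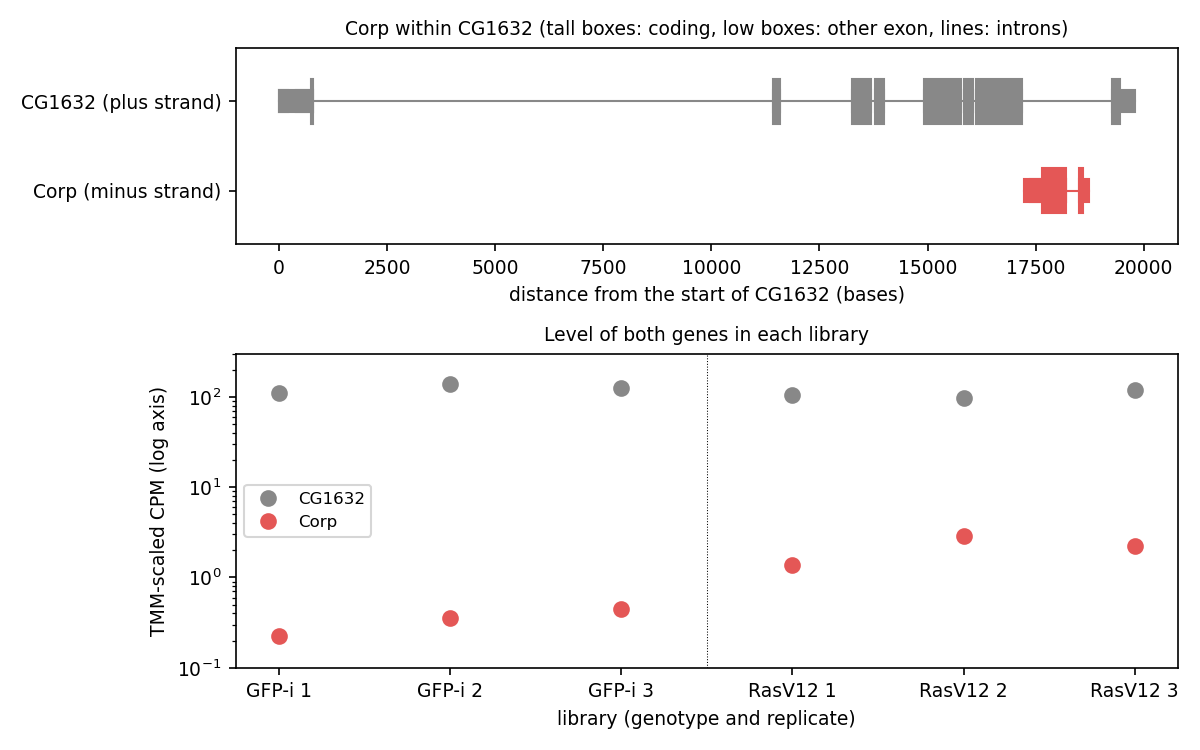
Upper panel, annotated exons of Corp and CG1632 against the distance in bases from the start of CG1632, drawn to scale on separate rows. Lower panel, TMM-scaled CPM (log axis) of both genes in each library. Corp lies between exons of CG1632 and is at 1.38 to 2.91 CPM in RasV12 against 0.226 to 0.453 CPM in the controls, while CG1632 is at 96.9 to 139 CPM throughout.

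The genes for the kinases that sense damage, tefu and mei-41, did not pass the test. The ATM gene tefu (3R, 15232212 to 15242236, minus strand, FBgn0045035) stood at 39.4, 26.8 and 22.8 CPM in RasV12 against 23.5, 20.5 and 24.5 CPM in the controls. RasV12 replicate 1 was the highest library and replicate 3 lay within the control range. The log2 fold change was 0.38 ± 0.21 (SE; edgeR adjusted p = 0.283) with a 95% interval of 0.937 to 1.81 on the fold scale, and it was 0.12 without RasV12 replicate 1. No other gene of the table overlaps tefu.

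The ATR gene mei-41 and the ATRIP gene mus304 encode partners of a complex and were measured at nearly equal levels in both genotypes. Levels of mei-41 (X, 16391698 to 16399850, plus strand, FBgn0004367) were 3.77, 4.59 and 4.57 CPM in RasV12 against 4.66, 3.95 and 3.25 CPM in the controls. Those of mus304 (3L, 18109814 to 18112847, plus strand, FBgn0002901) were 4.36, 4.12 and 3.67 CPM in RasV12 against 4.74, 2.95 and 3.78 CPM in the controls. The groups overlap for both genes. The fold change of mei-41 was 1.09, with a 95% interval of 0.728 to 1.63 (edgeR adjusted p = 0.797). That of mus304 was 1.06, with an interval of 0.693 to 1.63 (edgeR adjusted p = 0.872). Differences within these intervals were not excluded. The mei-41 to mus304 ratio was 0.867, 1.11 and 1.25 in RasV12 and 0.984, 1.34 and 0.860 in GFP-i, and the tefu to mei-41 ratio was 10.4, 5.84 and 4.98 in RasV12 and 5.03, 5.19 and 7.53 in GFP-i. Neither ratio separated the genotypes (exact two-sided permutation p = 0.9 and 0.7, n = 3 per group). The 3' end of mei-41 shares 69 bases with CG9981 on the other strand, which had 172 counts in all against 339.

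The clamp gene Rad9 (3L, 18870045 to 18872553, minus strand, FBgn0025807) was at 5.23, 3.94 and 4.57 CPM in RasV12 against 5.34, 3.60 and 4.15 CPM in the controls. The 2 ranges coincide almost entirely, with a fold change of 1.05 and a 95% interval of 0.702 to 1.58 (edgeR adjusted p = 0.885). Blos3, on the other strand, shares 264 exonic bases with Rad9 from 179 bases of its 3' end and had 948 counts in all against 367. CG6852, also on the other strand, shares the last 13 bases of Rad9 and had 1197 counts, so the values of Rad9 are uncertain. The loader gene Rad17 (3R, 14661176 to 14663197, minus strand, FBgn0025808) had 15, 26 and 18 counts in RasV12 and 14, 35 and 33 in GFP-i, or 1.09, 2.44 and 1.25 CPM against 1.05, 2.06 and 2.49 CPM. Libraries of each genotype lay at both ends of the range. The log2 fold change of -0.25 ± 0.45 did not pass (edgeR adjusted p = 0.756), with a 95% interval of 0.417 to 1.69 on the fold scale. The last 2 bases of Rad17 are also exon of Hexim on the other strand, which had 1740 counts in all against 141.

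Spread between replicates differed among the genes and followed their counts only in part. The most deeply counted gene, grp, varied by 11.7% in RasV12 and 7.96% in GFP-i, where counting alone gives 2.21% and 1.78%. Counting alone would give lok a coefficient of variation of 6.27% in each genotype, and the observed values were 5.48% in RasV12 and 13.98% in GFP-i. In RasV12, mei-41, mus304 and Rad9 varied by 10.8%, 8.58% and 14.1%, where counting alone gives 13.4%, 13.8% and 12.9%. In GFP-i they varied by 17.9%, 23.5% and 20.4%, where counting alone gives 13.2%, 13.6% and 12.7%. The ATM gene tefu varied by 29.2% in RasV12 against 5.09% from counting, through replicate 1, and p53 by 50.6% against 13.4%, through replicate 2. In GFP-i tefu and p53 varied by 9.03% and 13.6%, against 5.52% and 14.9% from counting. With only 3 libraries a group, these spreads are themselves imprecise.

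Of 12 mediators and break sensors, Claspin, CG10336, timeout and the histone gene His2Av fell and 8 did not pass. The 4 calls are 33.3% of the list, against 5.68% of all genes tested, and the list's median log2 fold change was -0.01. Like the lists below, this one was chosen with earlier results of these data known, so its share is no independent support. Claspin, which brings Chk1 to ATR, was at 8.49, 12.4 and 12.5 CPM in RasV12 against 19.2, 19.98 and 21.3 CPM in the controls, and every RasV12 library was lower (log2 fold change -0.86 ± 0.19, SE; edgeR adjusted p = 0.015). CG10336, the fly relative of the fork protection factor Tipin, fell by 1.09 ± 0.24 on the log2 scale (edgeR adjusted p = 0.013), and timeout, related to its partner Timeless, by 0.66 ± 0.15 (edgeR adjusted p = 0.018). His2Av, the histone variant that is phosphorylated around breaks, was at 185, 229 and 199 CPM in RasV12 against 399, 361 and 346 CPM in the controls (log2 fold change -0.85 ± 0.13, SE; edgeR adjusted p = 0.0018).

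The call of His2Av held when any single library was left out (edgeR adjusted p = 3.7e-04 to 0.014), and those of Claspin, CG10336 and timeout did not. For Claspin and CG10336 the adjusted p was 0.051 and 0.061 without RasV12 replicate 1, at log2 fold changes of -0.69 and -1.02. Without replicate 3 of the controls it was 0.070 and 0.052, at -0.87 and -1.17. For timeout the adjusted p was 0.060 with RasV12 replicate 3 left out, at a log2 fold change of -0.62. With RasV12 replicate 3 and the second control library both removed, only His2Av of this list was called. In edgeR no gene of this list was called higher, with 1 at an unadjusted p under 0.05 (mre11) and 0 called higher by DESeq2. The genes mre11, rad50 and nbs, whose products sense broken ends together and were named after their values were seen, had log2 fold changes of 0.43, 0.22 and 0.19 (edgeR adjusted p = 0.165, 0.588 and 0.624). The ATR activator gene mus101 (TopBP1), also named after its values were seen, was at 2.32, 4.87 and 1.32 CPM in RasV12 against 3.76, 1.83 and 2.795 CPM in the controls, and the groups overlap (log2 difference 0.01 ± 0.48, SE; edgeR adjusted p = 0.994).

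Of 10 clamp loader and RPA genes 1 fell, against 5.68% of all genes tested, and 9 did not pass. All 10 had a negative log2 fold change, with a median of -0.35, and DESeq2 also called 1. The one that passed was CG16838, named elg1 in the current gene table and in yeast an unloader of the replication clamp, at 9.66, 8.15 and 8.59 CPM in RasV12 against 15.8, 13.97 and 13.7 CPM in the controls (log2 fold change -0.72 ± 0.18, SE; edgeR adjusted p = 0.022). No RasV12 library reached the control range, but the adjusted p was 0.065 with RasV12 replicate 3 left out, and 0.059 and 0.051 with control replicate 1 or 3 left out. Next came Gnf1, the large subunit of the replication clamp loader, at -0.51 ± 0.18 (edgeR adjusted p = 0.092).

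Below the checkpoint kinases stood a list of 13 genes, made for the G2 to M step but also holding the Cdk inhibitor gene dap. Of the 13, stg and 14-3-3zeta fell and 11 did not pass. These 2 are 15.4% of the list, against 5.68% of all genes tested. The Cdc25 phosphatase gene stg, whose product Chk1 restrains, was at 440, 370 and 365 CPM in RasV12 against 778, 907 and 856 CPM in the controls, again with no overlap (log2 fold change -1.11 ± 0.13, SE; edgeR adjusted p = 3.1e-04). 14-3-3zeta, whose product binds phosphorylated proteins including Cdc25, was at 948, 873 and 951 CPM against 1771, 1929 and 2290 CPM, a log2 fold change of -1.11 ± 0.13 (edgeR adjusted p = 3.3e-04). Both calls held when any single library was left out. The list's median log2 fold change was -0.26. In edgeR no gene of the list was called higher, with 1 at an unadjusted p under 0.05 (dap, which encodes a Cdk inhibitor) and 0 called higher by DESeq2.

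Of 8 tested genes that p53 is known to induce after irradiation in flies, Xrp1 rose, RnrL fell and 6 did not pass, with a median log2 fold change of 0.06. A single call among 8 is 12.5% in each direction, near the 9.15% higher and 5.68% lower over all genes tested. Corp, itself a p53 target and called higher, is counted among the checkpoint genes and not in this list. Xrp1, a bZIP transcription factor, was at 1175, 1009 and 916 CPM in RasV12 against 655, 582 and 620 CPM in the controls, with every RasV12 library above them (log2 fold change 0.74 ± 0.13, SE; edgeR adjusted p = 0.0037). RnrL, the large subunit of ribonucleotide reductase, was at 39.1, 37.7 and 28.7 CPM against 60.4, 46.5 and 57.1 CPM, a difference of -0.64 ± 0.17 on the log2 scale (edgeR adjusted p = 0.031). Its groups were also apart, but leaving out replicate 1 or 3 of either genotype raised the adjusted p to between 0.058 and 0.098. The death genes rpr, hid, which the table lists as W, and egr, a TNF ligand, were named after their values were seen. Levels of rpr were 29.3, 39.7 and 37.3 CPM in RasV12 against 41.3, 37.96 and 49.7 CPM in the controls, and those of hid 294, 268 and 381 CPM against 259, 346 and 323 CPM. Both genes overlap between genotypes, with log2 fold changes of -0.28 and 0.02 (edgeR adjusted p = 0.325 and 0.951). Levels of egr were 5.81, 4.78 and 4.43 CPM in RasV12, all above the 3.76, 1.83 and 2.57 CPM of the controls, and the difference of 0.89 ± 0.32 on the log2 scale did not pass (edgeR adjusted p = 0.098).

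**Figure D5:**
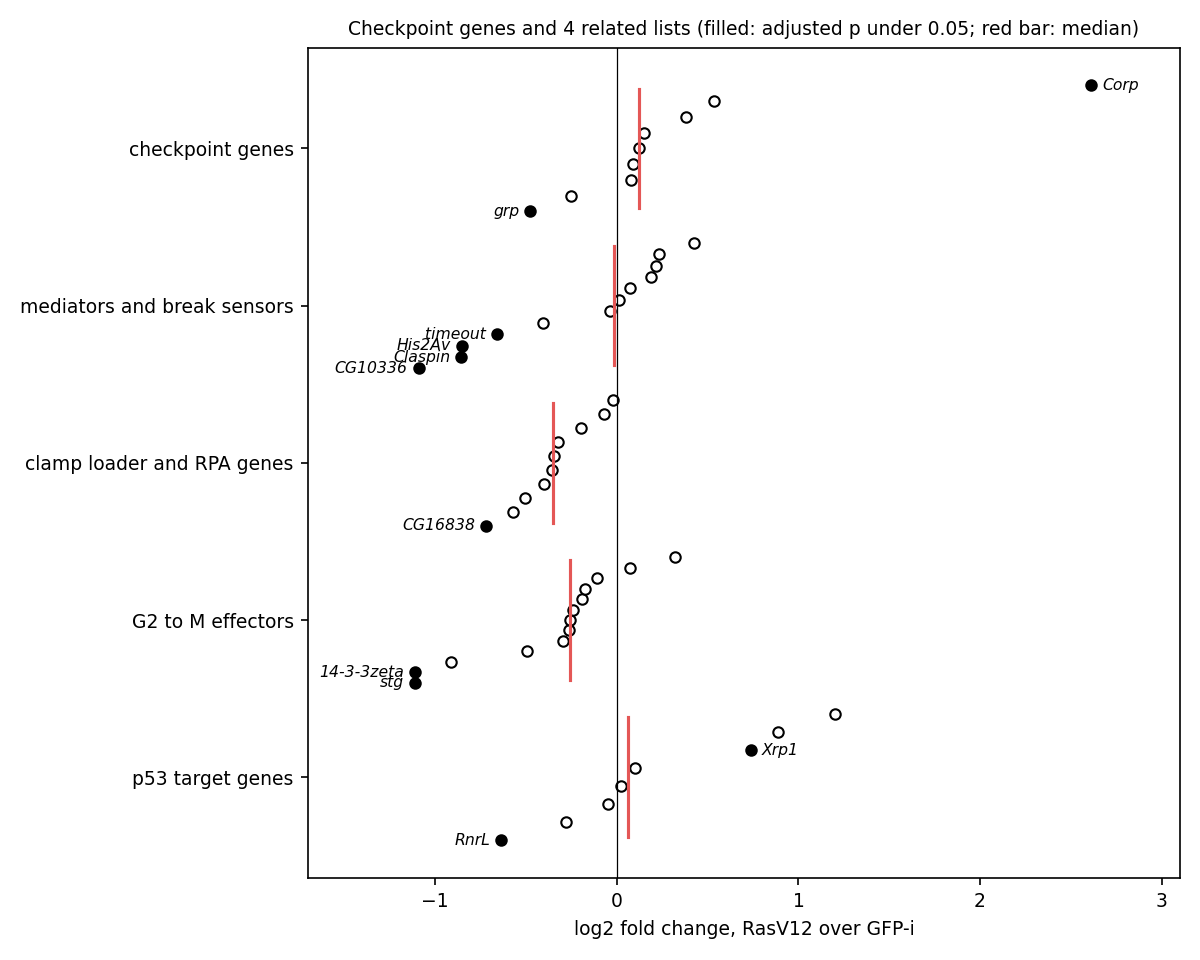
Log2 fold change of RasV12 over GFP-i (x axis) of the tested checkpoint genes and of 4 related lists (y axis), 1 point a gene, spread vertically within a list for legibility. Filled points passed the test and are named, and red bars are list medians, from -0.35 for clamp loader and RPA genes to 0.12 for the checkpoint genes.

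The genes whose levels over the 6 libraries ran most like a checkpoint gene were looked up by Pearson correlation of log2 CPM among genes with a mean of at least 10 CPM, as a description. For grp, of 4984 genes searched, these were Su(var)205, dUTPase and P5cr, with r = 0.994, 0.994 and 0.991 and log2 fold changes of -0.36, -0.47 and -0.37. For Corp they were vig, Rab2 and CG33970 (r = 0.992, 0.991 and 0.988), and for p53 Zip102B, robo and RpS15Aa (r = 0.994, 0.993 and 0.982). All share the 6 libraries, 2 genotypes and depths, and 53, 85 and 23 genes had an r above 0.95 with grp, Corp and p53.

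The authors' deposited table gives its own comparison for the same genes. By the authors' deposited table, 7.07% of genes with an adjusted p carried a call, and Corp was the only checkpoint gene with one, as higher (log2 fold change 1.78 shrunken and 2.62 unshrunken, adjusted p = 9.8e-04). For grp the authors' deposited table has a log2 fold change of -0.50 and an adjusted p of 0.0094 with no call, since all 698 of its calls have a shrunken log2 fold change of at least 1.00 in size. In the authors' deposited table the other 7 checkpoint genes had adjusted p-values from 0.374 (tefu) to 0.960 (Rad9).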

How the data were processed

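Libraries of sorted wing disc cells were made with a 3' end kit and read as single 100-base reads, per the labels' protocols. The authors deposited whole-number counts per gene, not normalized. Trimmomatic 0.33, STAR 2.3.0e, bedtools 2.17, DESeq2 and dm6 are named in the submitters' processing notes, and no source used here gives the counting program, its strand setting or the annotation. Per the file headers, the deposited table also holds the authors' DESeq2 comparison: a baseMean signal, log2 fold changes, a test statistic (a score), p-values and adjusted p-values, and a further column of another kind with the authors' calls. Of its gene identifiers shared with the Ensembl annotation, 98.5% had identical coordinates, including all 9 members.

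The test was that of edgeR 4.0.16 under R 4.3.3 (TMM, filterByExpr, robust quasi-likelihood F test, two-sided), over 9134 genes. Standard errors come from the F statistic, intervals are 95%, and SD is over 3 libraries. Ratios used a pseudocount of 0.5, and 4 of 5 pairs were computed. Alternatives were DESeq2 1.42.0, its size factors in edgeR, library size only, no filter, a replicate block and leaving out each library, and, added after the data were seen, leaving out a pair of libraries or the ribosomal RNA and mitochondrial genes. The edgeR script was tested on simulated data. Members and lists were chosen with earlier results of these data known. Named genes were all members, overlapping genes, and list genes past the threshold or the 2 of lowest p. One clamp loader and RPA gene and 1 haemocyte marker are not analysed here.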

Additional observations from a re-analysis of the deposited data

How the results depend on the processing

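Corp kept its call in 12 of 13 alternatives and grp in 8, and the direction held in all for both and for tefu, p53 and Rad17. Near-zero differences changed sign: with scaling by library size only, which moved the median log2 fold change of all genes from 0.02 to -0.14, those of mei-41, lok, mus304 and Rad9 were -0.035, -0.0083, -0.071 and -0.086. Without 1 library, mei-41 ranged from -0.056 to 0.21, mus304 from -0.12 to 0.21 and Rad9 from -0.10 to 0.18. In an alternative added once the data had been seen, without both RasV12 replicate 3 and GFP-i replicate 2, mus304 was -0.047 and Rad9 -0.091. That setting called 0 members higher and 0 lower, 436 genes higher and 242 lower, 1 mediator, 0 p53 targets and 0 clamp loader and RPA genes lower. By library size 911 genes and 4 clamp loader and RPA genes were lower. Without 1 library, 437 to 943 genes were higher and 297 to 578 lower, and members called lower were 0 to 1, mediators 2 to 4, p53 targets 0 to 1 and clamp loader and RPA genes 0 to 1. The causes were not tested.

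Same-numbered libraries did not deviate together (correlations of -0.16, -0.48 and -0.14), and no RasV12 library correlated best with its own number. Since deviations were taken from the mean of only 3 libraries per genotype, these correlations cannot decide whether equal numbers pair libraries. With a replicate block 480 genes were higher and 221 lower, grp had an adjusted p of 0.112 and Corp one of 0.019, and 0 members, 1 mediator, 0 p53 targets and 0 clamp loader and RPA genes were lower. Depth limits Corp and Rad17 most, with 97 and 141 counts in all.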
